A study of Homo sapiens with 43 samples.

Results

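The genes described are the classical and related cadherins and the protocadherins of HMC3, an immortalised line of human brain cells sold as microglia. They were taken from a table of 20052 genes as the protein-coding rows whose symbol is CDH or PCDH followed by a number or a cluster letter, without 3 X-linked or Y-linked protocadherins. The rule found 51 genes, of which 13 were cadherins and 5 were protocadherins outside the gene clusters. Another 2, 12 and 19 belonged to the alpha, beta and gamma clusters of chromosome 5. GENCODE release 29 holds 86 genes that meet the same rule, so the set is not complete. Sums and shares of a cluster refer to the genes found. Of the 51 genes, 32 passed a filter on low counts and could be tested. They were 11 cadherins, all 5 non-clustered protocadherins, 4 beta and 12 gamma genes, and no alpha gene.

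Cadherins are calcium-dependent adhesion proteins that bind the same cadherin on a neighbouring cell and are tied to the actin skeleton by catenins. E-cadherin, the product of CDH1, holds epithelia together, whereas N-cadherin (CDH2) is typical of neural and mesenchymal cells. Protocadherins carry more extracellular repeats and bind weakly. Those of the clusters are made from a variable exon with its own promoter, joined in the alpha and gamma clusters to constant exons that all genes of the cluster share, and in neurons the set of variable exons in use marks a cell's own processes. The last genes of the alpha and gamma clusters, called C-type, are regulated differently from the others.

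The study kept flasks of HMC3 for 3 days with dexamethasone at 1 µM or 0.01 µM, with hydrocortisone (cortisol) at 10 µM or 0.01 µM, with the ethanol vehicle of each of these 4 treatments, or in untreated medium. Dexamethasone is a synthetic glucocorticoid that differs from hydrocortisone by an added methyl group, a fluorine and a further double bond in its ring A. Part of the cells of each flask was reseeded without hormone and harvested on day 6, after 3 days of washout. Total RNA of 43 libraries was sequenced: 3 libraries of each hormone dose, of each vehicle and of the medium on day 3, and on day 6 3 of each hormone dose and 1 of each vehicle. All groups share a single cell line. The labels number flasks within a group and do not say whether the flasks came from separate cultures, and p-values therefore cover only the spread among libraries.

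Depth ran from 7638840 to 24426643 counts per library, but ribosomal RNA took 9.90% to 94.9% of them and over 75% in 7 libraries. The 51 genes together had 254 to 4243 counts per library, with a median of 2203. The lowest value came from replicate 3 of dexamethasone 0.01 µM on day 3, which was the library with the most ribosomal RNA. Levels are given in CPM, counts divided by a library size that was scaled by TMM, a method that trims extreme genes. The microglia and macrophage markers CSF1R, TREM2 and CD68 had medians of 0.146, 0.136 and 0.0583 CPM. Of 12 markers of fibroblasts and pericytes, 7 exceeded 1 CPM in the median library. AIF1, CX3CR1, P2RY12 and TMEM119, which define microglia, are not analysed here. The known glucocorticoid-induced genes TSC22D3, FKBP5 and PER1 rose by 3.99, 1.44 and 2.40 on the log2 scale with dexamethasone 1 µM.

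CDH2 and PCDHGC3 dominated the set. CDH2 held 37.5% of all counts of the 51 genes and PCDHGC3, a C-type gene of the gamma cluster, 20.6%. Per kilobase of exon that no other gene overlaps, CDH2 had a median over the 43 libraries of 10.1 CPM per kb and PCDHGC3 of 9.08 CPM per kb. Then followed CDH24 at 2.87, CDH4 (R-cadherin) at 1.31, PCDHGA11 at 0.987 and CDH13 (T-cadherin, which is held in the membrane by a lipid anchor and lacks a cytoplasmic tail) at 0.919 CPM per kb. These levels ranked the genes within the libraries and were not tested against each other.

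CDH1, which marks epithelia, had a median of 0.181 CPM and 0 to 17 counts per library. CDH5 (VE-cadherin), which marks endothelium, had a median of 0.0556 CPM, 0 to 7 counts per library and no count in 18 of 43 libraries. CDH11 is not analysed here. Of the counts of the 51 genes, the 13 cadherins held 64.2% and the 19 gamma genes 28.8%. The 5 non-clustered protocadherins held 3.75%, the 12 beta genes 3.06% and the 2 alpha genes 0.15%. The 19 genes that were not tested had totals of 55 to 159 counts over all libraries and at most 12 counts in a library. They were CDH5, CDH16, PCDHA3, PCDHAC2, PCDHB3, PCDHB8, PCDHB9, PCDHB10, PCDHB11, PCDHB12, PCDHB15, PCDHB16, PCDHGA1, PCDHGA5, PCDHGA9, PCDHGA12, PCDHGB1, PCDHGB3 and PCDHGB6.

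The first question was which of these genes differed on day 3 between hormone and ethanol alone. With dexamethasone at 1 µM, CDH13, PCDHGC3, CDH6 and CDH2 fell and PCDH9, PCDH18 and PCDH7 rose. With 0.01 µM, PCDHGC3, CDH13, CDH6 and PCDHGC5 fell and PCDH18, PCDH9 and PCDHB2 rose. With hydrocortisone at 10 µM, PCDHGC3, CDH13 and CDH2 fell and PCDH7 and PCDH9 rose. No gene of the set was called with hydrocortisone at 0.01 µM. CDH13, PCDHGC3 and PCDH9 were called in all 3 of the other comparisons.

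The test was edgeR's quasi-likelihood test, with p-values adjusted over all 16816 genes tested and a threshold of 0.05. It called 7 of the 32 tested genes with dexamethasone 1 µM, where it called 22.6% of all genes (10.3% higher and 12.3% lower). With dexamethasone 0.01 µM it again called 7 of 32, against 14% of all genes (6.15% higher and 7.84% lower), and with hydrocortisone 10 µM 5 of 32, against 13.1% (5.58% higher and 7.5% lower). With hydrocortisone 0.01 µM it called 0 of 32, against 0% of all genes, and 2 of the 32 had an unadjusted p under 0.05 (CDH15 and PCDH18). DESeq2 called 7, 6, 5 and 0 genes of the set in these 4 comparisons, while the shares of all genes given here are those of edgeR. The share of the set that was called was thus not far from that of all genes in each, and the median log2 change of the 32 genes was 0.05, 0.24, 0.11 and -0.09, against 0.02, 0.00, 0.01 and -0.00 for all genes. A fit of the 2 groups compared alone called only CDH13 and PCDHGC3 with dexamethasone 0.01 µM. With hydrocortisone 10 µM, 3 genes were called without replicate 2 of its vehicle, and 8 when all 12 vehicle libraries served for comparison.

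**Figure D1:**
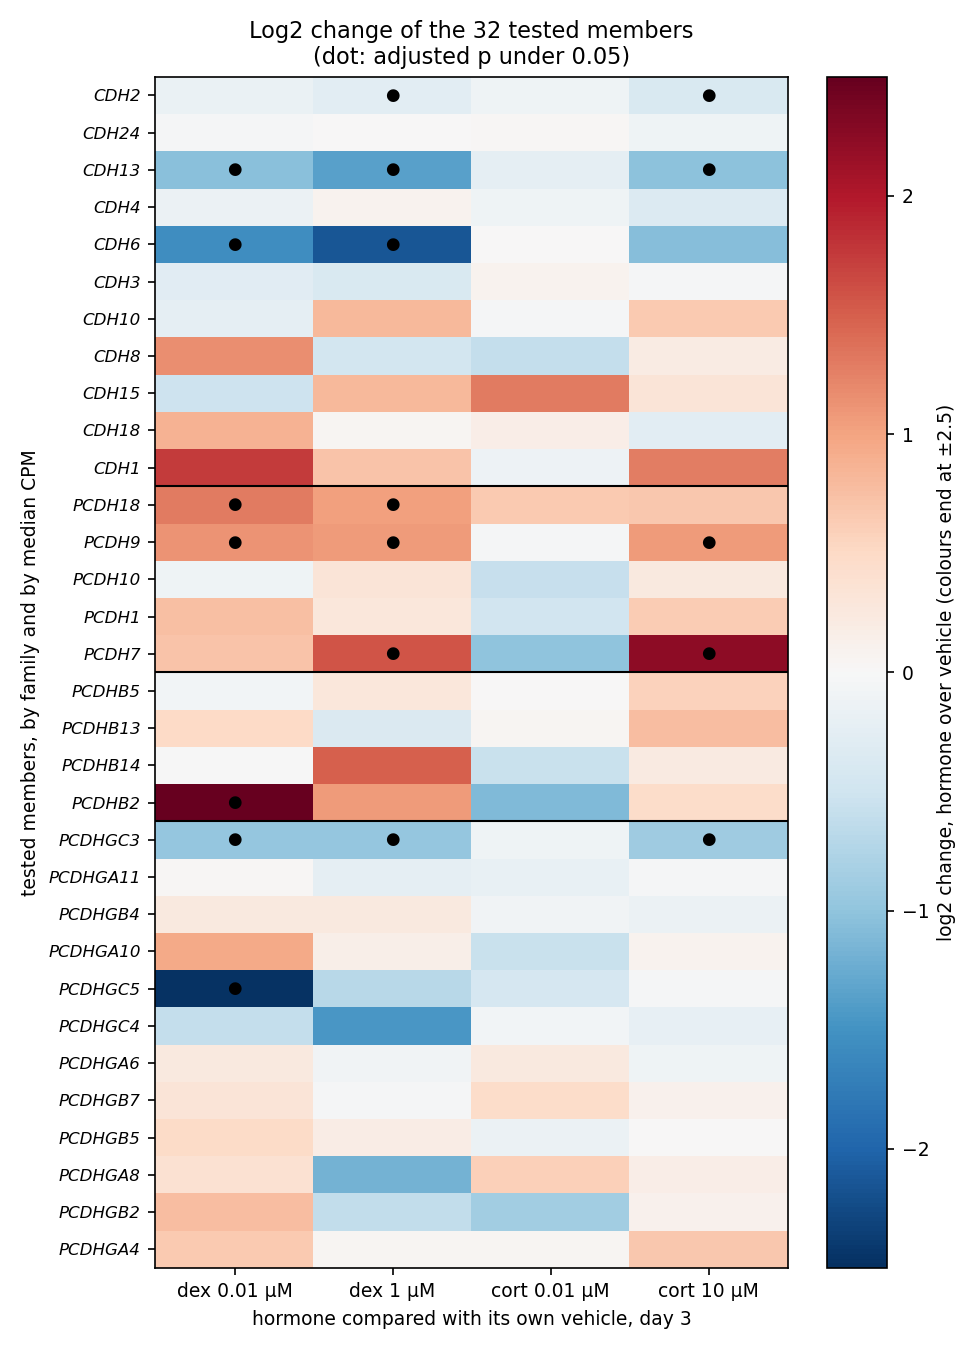
Log2 change of the 32 tested cadherins and protocadherins, hormone over its own vehicle on day 3 (n = 3 libraries each), with families separated by lines and a dot where the adjusted p of edgeR's quasi-likelihood test was under 0.05. Dots lie on blue cells among the cadherins and C-type gamma genes and on red cells among the non-clustered protocadherins and PCDHB2; the column of hydrocortisone 0.01 µM has none.

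By family, the cadherins that were called fell in each comparison: 3, 2 and 2 of 11 with dexamethasone 1 µM, dexamethasone 0.01 µM and hydrocortisone 10 µM, and none rose. The non-clustered protocadherins that were called rose: 3, 2 and 2 of 5, and none fell. In the gamma cluster 1, 2 and 1 of 12 fell and none rose, and in the beta cluster 0, 1 and 0 of 4 rose. Over all genes 12.3%, 7.84% and 7.5% fell and 10.3%, 6.15% and 5.58% rose in these comparisons. Each of the rises, in either family, lost its call when some single library was left out.

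CDH13 (ENSG00000140945, chr16:82626803-83800640 of GRCh38, plus strand) encodes T-cadherin, a receptor for adiponectin and low-density lipoprotein. It had 3.38, 4.90 and 4.06 CPM with dexamethasone 1 µM, against 9.28, 11.3 and 11.3 CPM in its vehicle. Every dexamethasone library was thus below every vehicle library, and the fitted log2 change was -1.36 (SE 0.14, adjusted p = 1.4e-10 by edgeR's quasi-likelihood test), a 2.58-fold lower level.

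At 0.01 µM dexamethasone, CDH13 had 4.43, 5.47 and 6.38 CPM, against 11.8, 11.1 and 10.3 CPM in its vehicle (log2 change -1.04, SE 0.14, adjusted p = 2.26e-07 by edgeR). Hydrocortisone 10 µM gave 8.31, 5.62 and 7.91 CPM, against 15.5, 13.9 and 15.1 CPM in its vehicle (log2 change -1.02, SE 0.14, adjusted p = 2.22e-07 by edgeR). The groups did not overlap in either case. That last vehicle group stood above the other 9 vehicle libraries of day 3, which reached 11.8 CPM at most, and above the medium, at 9.58 to 12.2 CPM. With untreated medium as the reference the log2 change for hydrocortisone 10 µM was -0.59 (adjusted p = 0.0014 by edgeR). Hydrocortisone 0.01 µM left CDH13 at 9.34, 10.2 and 8.14 CPM, against 10.8, 11.4 and 10.1 CPM in its vehicle, and these groups overlapped (95% interval of the log2 change -0.51 to 0.04).

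**Figure D2:**
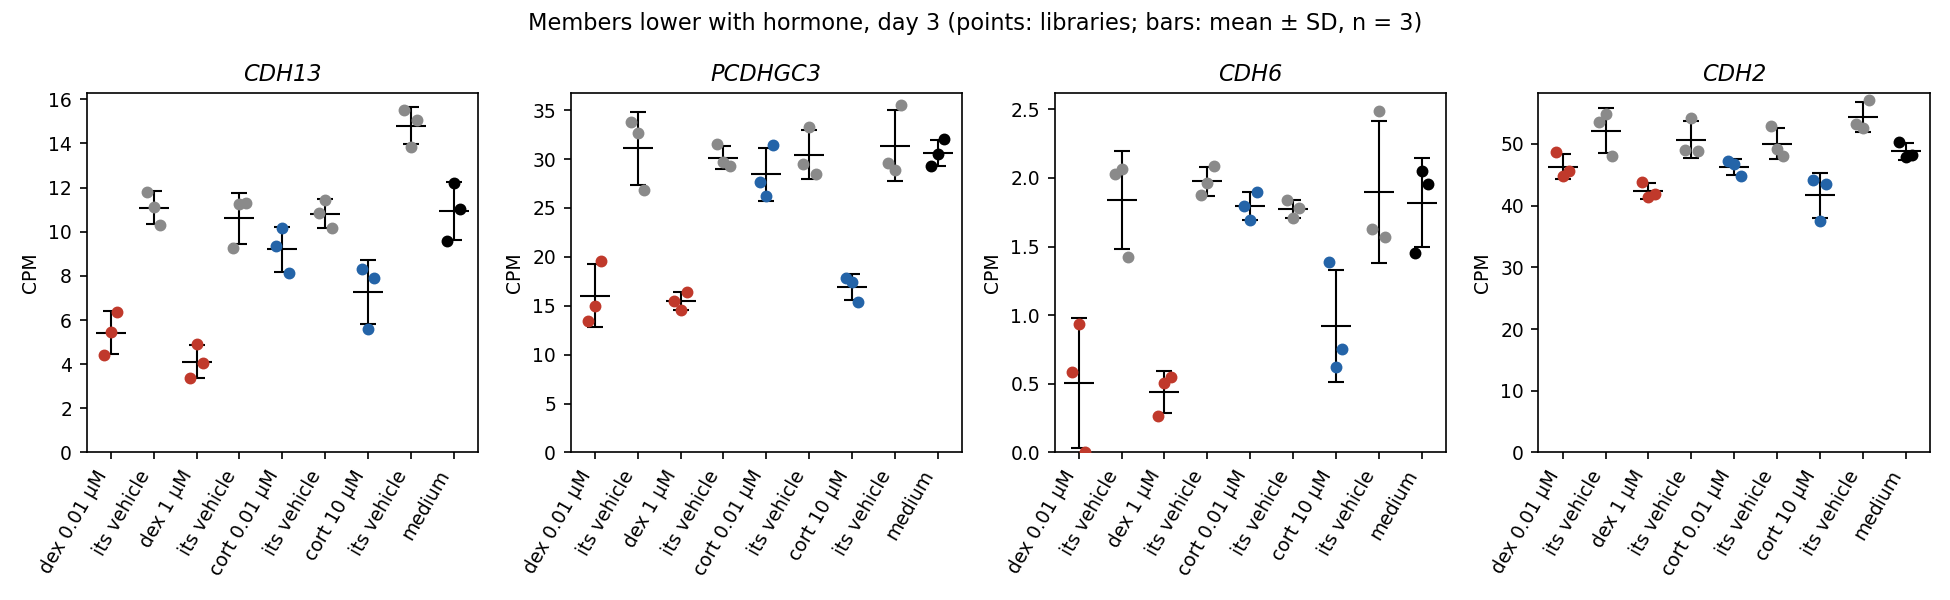
Levels in CPM of CDH13, PCDHGC3, CDH6 and CDH2 on day 3 in each hormone group (coloured), its own vehicle (grey) and untreated medium (black); points are libraries and bars the mean ± SD of 3. For CDH13 and PCDHGC3 the libraries of both dexamethasone doses and of hydrocortisone 10 µM lie below all vehicle and medium libraries, whereas those of hydrocortisone 0.01 µM overlap their vehicle.

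CDH6 (ENSG00000113361, chr5:31193750-31329146, plus strand) encodes K-cadherin, a type II cadherin of developing kidney and brain. It had 0.267, 0.503 and 0.548 CPM with dexamethasone 1 µM, against 1.87, 1.96 and 2.09 CPM in its vehicle. These values rest on 3 to 11 counts per dexamethasone library and 23 to 47 per vehicle library. The groups were far apart relative to their spread, with a log2 change of -2.15 (SE 0.40, adjusted p = 5.67e-05 by edgeR). Of the called changes with this treatment it was the one of greatest size.

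At the lower dose of dexamethasone, CDH6 had 0.583, 0.937 and 0 CPM, against 2.03, 2.07 and 1.42 CPM in its vehicle (log2 change -1.55, SE 0.40, adjusted p = 0.00542 by edgeR). The library at 0 was the one highest in ribosomal RNA, in which a count of 0 allows up to 1.47 CPM (3 counts, counting error only). A fit of these 2 groups alone gave an adjusted p of 0.368. Hydrocortisone 10 µM gave CDH6 levels of 1.39, 0.624 and 0.751 CPM, against 1.63, 2.49 and 1.57 CPM in its vehicle. The groups did not overlap, but the difference missed the threshold (log2 change -1.06, adjusted p = 0.0568 by edgeR).

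CDH2 (ENSG00000170558, chr18:27950966-28177446, minus strand) encodes N-cadherin. The most abundant gene of the set changed least among those called. It had 43.9, 41.4 and 41.9 CPM with dexamethasone 1 µM, against 49.0, 54.2 and 48.9 CPM in its vehicle (log2 change -0.26, SE 0.07, adjusted p = 0.00661 by edgeR). Without vehicle replicate 2 the adjusted p was 0.0692. Hydrocortisone 10 µM gave 44.1, 37.5 and 43.5 CPM, against 53.3, 52.6 and 57.2 CPM in its vehicle (log2 change -0.38, SE 0.07, adjusted p = 0.000138 by edgeR). The groups overlapped at 0.01 µM dexamethasone, with 44.7 to 48.6 CPM in hormone libraries, against 48.1 to 54.9 CPM in vehicle libraries (log2 change -0.17, adjusted p = 0.115 by edgeR).

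The abundant CDH24 and CDH4 were not called in any comparison with a vehicle on day 3. CDH24, a type II cadherin that binds catenins, had 10.6 ± 1.2 CPM with dexamethasone 1 µM and 10.6 ± 1.1 CPM in its vehicle (SD, n = 3 each). CDH4 had 9.56 ± 0.55 CPM with dexamethasone 1 µM and 8.98 ± 0.45 CPM in its vehicle (SD, n = 3 each). CDH1 was not called either. It had 0.267 to 0.548 CPM with dexamethasone 1 µM, against 0.0835 to 0.407 CPM in its vehicle, and the 95% interval of its log2 change ran from -0.72 to 2.14, so that its direction could not be told at these counts.

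PCDHGC3 (ENSG00000240184, chr5:141475947-141512979, plus strand) was the gene of the clusters that moved most clearly. It had 15.5, 14.6 and 16.4 CPM with dexamethasone 1 µM, against 31.5, 29.7 and 29.2 CPM in its vehicle, so that every hormone library was below every vehicle library. The log2 change was -0.96 (SE 0.10, adjusted p = 3.41e-10 by edgeR's quasi-likelihood test), a 1.94-fold lower level.

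The lower dexamethasone dose gave the same size of change: PCDHGC3 had 13.5, 14.9 and 19.6 CPM with 0.01 µM, against 33.8, 32.7 and 26.8 CPM in its vehicle (log2 change -0.96, SE 0.10, adjusted p = 7.73e-10 by edgeR). In hydrocortisone 10 µM it had 17.8, 17.5 and 15.4 CPM, against 29.6, 28.9 and 35.6 CPM in its vehicle (log2 change -0.89, SE 0.10, adjusted p = 3.7e-09 by edgeR). Hydrocortisone 0.01 µM left it at 27.7, 26.2 and 31.4 CPM, against 29.5, 33.3 and 28.5 CPM in its vehicle, and the groups overlapped. The 95% interval of that log2 change was -0.30 to 0.10, which does not reach the size seen with the other treatments.

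The 19 gamma genes of the set end in the same constant exons, so a read from those exons names no single gene. No source used here states how the authors counted such reads. The gamma gene with the fewest counts, PCDHGA9, had 57 over all libraries and PCDHGC3 had 19945, so reads of the shared exons had not been added to each gene. The sum over these 19 genes does not depend on how reads were split among them. Reads given to any gamma gene outside the 19 are not in that sum. That sum fell with dexamethasone 1 µM (24.4 to 26.6 CPM, against 40.3 to 42.2 CPM in the vehicle), with a log2 change of -0.71 (SE 0.09, adjusted p = 4.4e-08 by edgeR). It fell by 0.61 on the log2 scale with dexamethasone 0.01 µM and also with hydrocortisone 10 µM, while with hydrocortisone 0.01 µM its log2 change was -0.11 and was not called.

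The other 18 gamma genes together did not show this separation. Their sum was 11.1, 9.98 and 8.0 CPM with dexamethasone 1 µM, against 10.7, 11.1 and 11.1 CPM in its vehicle. In dexamethasone 0.01 µM it was 10.6, 10.8 and 12.3 CPM, against 8.95, 13 and 9.19 CPM in its vehicle. In hydrocortisone 10 µM it was 10.1, 11.4 and 9.90 CPM, against 9.79, 8.80 and 12.3 CPM in its vehicle. Hormone and vehicle libraries overlapped in all 3 cases. PCDHGC3 was set apart after its values were seen, so this sum was not tested.

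The PCDHGC3 share of gamma counts was 55.9% to 67.3% in the 9 libraries of dexamethasone and of hydrocortisone 10 µM, against 71.6% to 79.1% in the 9 libraries of their vehicles. It was 74.2% ± 3.1 with hydrocortisone 0.01 µM and 76.0% ± 0.3 in medium (SD, n = 3 each). The 9 hormone libraries were all below the 9 vehicle libraries.

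**Figure D3:**
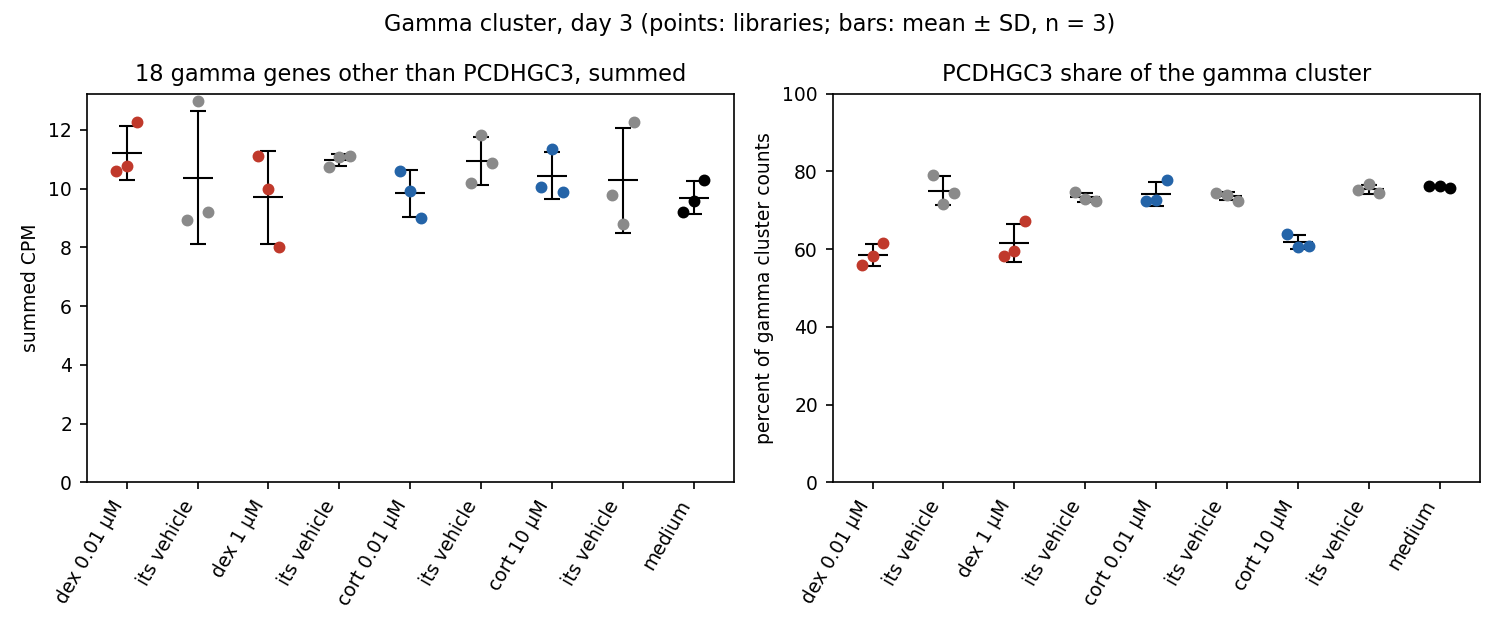
Left, summed CPM of the 18 gamma cluster genes other than PCDHGC3 on day 3; right, PCDHGC3 as a percent of all gamma cluster counts; points are libraries and bars the mean ± SD of 3. The sums of hormone and vehicle groups overlap, while the PCDHGC3 share is 55.9% to 67.3% with dexamethasone and hydrocortisone 10 µM and 71.6% to 79.1% in their vehicles.

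The promoters of PCDHGC3 and of PCDHGA11, the 2 most abundant gamma genes per kb, are shown side by side because each gamma gene starts from a promoter of its own. Both are from RefSeq on GRCh38.p14, plus strand of chromosome 5, from 250 bases before to 50 after the start. Capitals mark, on either strand, CGCT (the core of the conserved element of clustered protocadherin promoters), AGAACA (the hexamer of the glucocorticoid receptor's palindrome) and CACCTG (the E-box of SNAI and ZEB factors).
PCDHGC3, chr5:141475716-141476015: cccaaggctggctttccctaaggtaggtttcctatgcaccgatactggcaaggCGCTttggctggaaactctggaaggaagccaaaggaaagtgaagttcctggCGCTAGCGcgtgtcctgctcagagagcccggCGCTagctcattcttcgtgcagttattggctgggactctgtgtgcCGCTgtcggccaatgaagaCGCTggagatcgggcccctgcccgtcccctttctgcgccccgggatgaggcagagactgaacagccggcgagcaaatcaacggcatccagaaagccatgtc
PCDHGA11, chr5:141420801-141421100: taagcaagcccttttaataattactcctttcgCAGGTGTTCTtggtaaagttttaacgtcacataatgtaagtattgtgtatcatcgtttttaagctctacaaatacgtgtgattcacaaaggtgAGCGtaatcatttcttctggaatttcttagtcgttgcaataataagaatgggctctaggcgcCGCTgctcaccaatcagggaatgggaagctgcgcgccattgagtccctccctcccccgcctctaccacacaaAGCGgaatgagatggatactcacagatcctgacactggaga
In PCDHGC3 all capitals are CGCT or its reverse complement. In PCDHGA11 the first capitals are CACCTG and AGAACA, both on the minus strand and overlapping, and the others are CGCT. Over the 48 RefSeq promoters of 38 genes of the set, CGCT was in 97.9%, against 70% of all 35116 promoters in the table. AGAACA was in 12.5% (all promoters 14.8%), CACCTG in 10.4% (20.6%) and the TATA box TATAAA in 6.25% (11.5%). The full receptor palindrome was in none of the 48 and in 0.00285% of all. PCDHGA11 had 3.92, 3.57 and 2.08 CPM with dexamethasone 1 µM, against 3.42, 4.13 and 3.61 CPM in its vehicle, and was not called in any comparison.

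The sister C-type genes of PCDHGC3 had few counts. PCDHGC5 fell with dexamethasone 0.01 µM, with 2, 3 and 0 counts (0.117, 0.156 and 0 CPM), against 6, 8 and 10 counts (1.01, 0.787 and 0.432 CPM) in its vehicle. The count of 0 is from the library highest in ribosomal RNA and allows up to 1.47 CPM, above all 3 vehicle values. The log2 change was -2.47 (SE 0.53, adjusted p = 0.000686 by edgeR), and it was -0.69 and not called with dexamethasone 1 µM. A fit of the 2 groups of 0.01 µM alone gave an adjusted p of 0.0935. PCDHGC4 had a log2 change of -1.45 with dexamethasone 1 µM, which missed the threshold (adjusted p = 0.0574 by edgeR).

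The non-clustered protocadherins that were called rose. PCDH9 (ENSG00000184226, chr13:66302834-67230445, minus strand), a gene known from brain, had 2.40, 2.61 and 2.41 CPM with dexamethasone 1 µM, against 0.895, 1.34 and 1.28 CPM in its vehicle (log2 change 1.07, SE 0.31, adjusted p = 0.00879 by edgeR). With dexamethasone 0.01 µM it had 2.85, 2.81 and 1.96 CPM, against 0.338, 1.18 and 1.90 CPM in its vehicle (log2 change 1.12, SE 0.32, adjusted p = 0.011 by edgeR). In hydrocortisone 10 µM it had 2.65, 2.75 and 3.49 CPM, against 1.09, 1.33 and 1.77 CPM in its vehicle (log2 change 1.06, SE 0.31, adjusted p = 0.0173 by edgeR). The groups did not overlap in any of the 3, although with dexamethasone 0.01 µM the lowest hormone and highest vehicle libraries nearly met. That lowest hormone value, 1.96 CPM, rests on 4 counts in the library highest in ribosomal RNA. The vehicle values of 0.338 and 1.09 CPM rest on 2 and 4 counts. Each of these calls was lost when certain libraries were left out: vehicle replicate 1 for dexamethasone 1 µM (adjusted p = 0.0606), vehicle replicate 1 for 0.01 µM (0.11, and 0.287 in a fit of these 2 groups alone or 0.0668 without libraries over 75% ribosomal RNA), and hormone replicate 4 or vehicle replicate 1 or 2 for hydrocortisone 10 µM (0.0636 to 0.0942).

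PCDH18 (ENSG00000189184, chr4:137518918-137532494, minus strand) belongs to the delta protocadherins, as PCDH9 and PCDH7 do. It had 1.87, 2.33 and 1.53 CPM with dexamethasone 1 µM, against 0.895, 1.21 and 0.712 CPM in its vehicle (log2 change 1.02, SE 0.32, adjusted p = 0.0145 by edgeR). With dexamethasone 0.01 µM it had 2.10, 2.24 and 2.94 CPM, against 1.01, 1.38 and 0.561 CPM in its vehicle (log2 change 1.29, SE 0.33, adjusted p = 0.00491 by edgeR). The values of 2.94 CPM (the library highest in ribosomal RNA) and 1.01 CPM rest on 6 counts each. No hormone library overlapped its vehicle, but the medium libraries, at 1.74, 1.25 and 1.23 CPM, overlapped those of dexamethasone 1 µM. Against medium the log2 changes were 0.45 (adjusted p = 0.349) and 0.75 (adjusted p = 0.111), and the calls were also lost without dexamethasone 1 µM replicate 3 or its vehicle replicate 4 (0.0848 and 0.0869) and without replicate 3 of the vehicle of 0.01 µM (0.0659). A fit of the 2 groups of 0.01 µM alone gave 0.0834. With hydrocortisone 10 µM the log2 change was 0.68 (adjusted p = 0.163).

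PCDH7 (ENSG00000169851, chr4:30720415-31146805, plus strand) had 6, 25 and 15 counts with dexamethasone 1 µM (0.534, 1.14 and 1.64 CPM), against 5, 10 and 6 counts in its vehicle (0.407, 0.417 and 0.285 CPM). The log2 change was 1.56 (SE 0.55, adjusted p = 0.0327 by edgeR), and the adjusted p was 0.0672 to 0.179 without dexamethasone replicate 3 or 4 or any 1 of the 3 vehicle libraries. With hydrocortisone 10 µM PCDH7 had 16, 29 and 18 counts (0.964, 0.905 and 0.795 CPM), against 1, 0 and 6 counts in its vehicle (0.272, 0 and 0.294 CPM). That log2 change was 2.24 (SE 0.62, adjusted p = 0.00945 by edgeR), with 0.0813 without vehicle replicate 2 and 0.0817 in a fit of these 2 groups alone. A count of 0 in that vehicle library allows up to 0.249 CPM. The other 2 non-clustered protocadherins, PCDH1 and PCDH10, were not called.

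**Figure D4:**
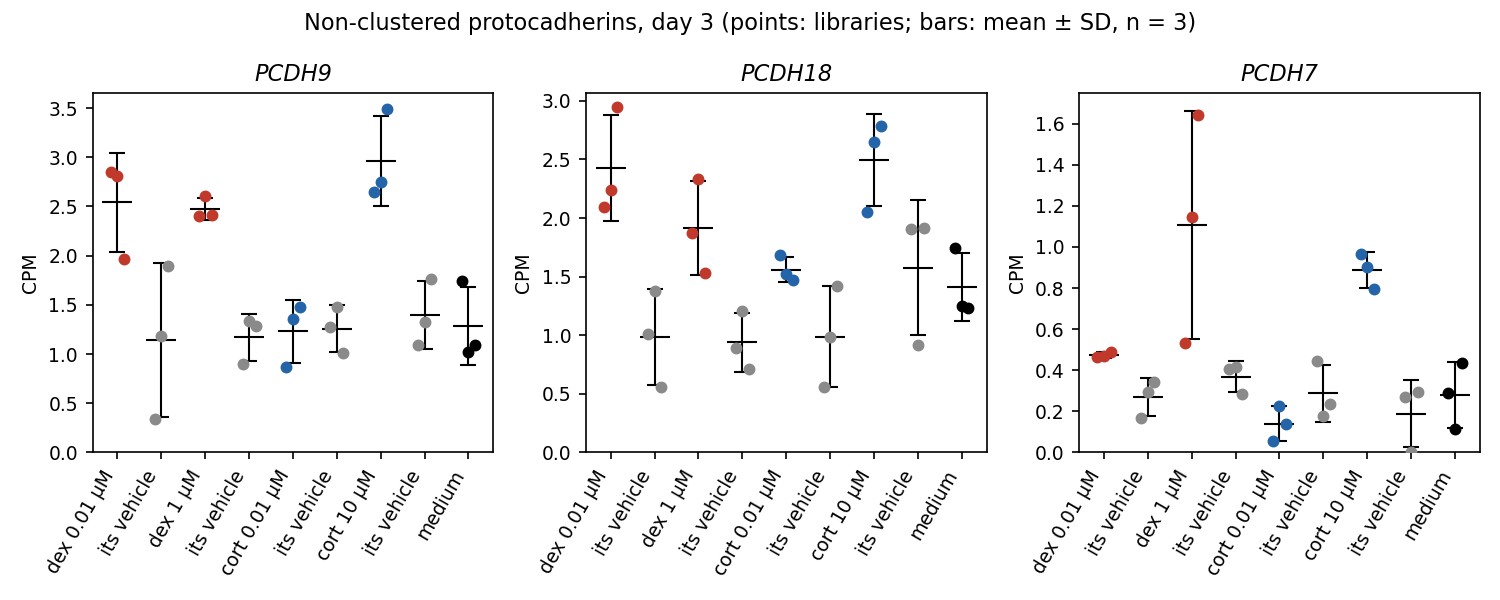
Levels in CPM of PCDH9, PCDH18 and PCDH7 on day 3 in each hormone group (coloured), its own vehicle (grey) and untreated medium (black); points are libraries and bars the mean ± SD of 3. PCDH9 is at 1.96 to 3.49 CPM with dexamethasone and hydrocortisone 10 µM and at 0.338 to 1.90 CPM in their vehicles.

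The RefSeq promoters of the 2 most abundant of these genes (GRCh38.p14, minus strand, written 5′ to 3′, with capitals for the same motifs) are shown because both genes rose with each dexamethasone dose.
PCDH9, chr13:67230287-67230586: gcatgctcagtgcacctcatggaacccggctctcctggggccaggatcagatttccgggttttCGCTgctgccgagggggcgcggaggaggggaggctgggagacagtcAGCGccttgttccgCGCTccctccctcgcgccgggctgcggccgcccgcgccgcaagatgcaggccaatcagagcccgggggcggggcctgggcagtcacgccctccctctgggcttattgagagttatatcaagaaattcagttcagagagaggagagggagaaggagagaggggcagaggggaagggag
PCDH18, chr4:137532445-137532744: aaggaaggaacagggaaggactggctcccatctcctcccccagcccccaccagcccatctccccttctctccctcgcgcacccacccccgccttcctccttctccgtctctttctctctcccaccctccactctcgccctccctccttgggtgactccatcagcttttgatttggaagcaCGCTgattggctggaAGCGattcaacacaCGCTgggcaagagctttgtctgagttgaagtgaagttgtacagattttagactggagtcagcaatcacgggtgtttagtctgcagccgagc
All capitals in both are CGCT or its reverse complement, and neither window holds AGAACA or CACCTG.

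Beta cluster genes have a single exon each and resemble one another closely, so reads can be split among them. PCDHB2 was called with dexamethasone 0.01 µM, with 3, 8 and 5 counts (0.175, 0.417 and 2.45 CPM), against 0, 1 and 3 counts (0, 0.0984 and 0.130 CPM) in its vehicle. The log2 change was 2.85 (SE 0.98, adjusted p = 0.0419 by edgeR). The highest value came from the library with 94.9% ribosomal RNA. Without that library the log2 change was 1.58 (adjusted p = 0.299), and the call was also lost without any 1 of the 3 vehicle libraries (0.0744 to 0.122), without ribosomal genes (0.156), in a fit of these 2 groups alone (0.204) and against medium (0.37). The summed beta cluster was not called: its log2 changes were 0.61, 0.61 and 0.57 with dexamethasone 1 µM, dexamethasone 0.01 µM and hydrocortisone 10 µM (adjusted p = 0.114, 0.158 and 0.18 by edgeR). It had 4.44 ± 0.62 CPM with dexamethasone 1 µM and 2.90 ± 0.89 CPM in its vehicle (SD, n = 3 each), and 4.25 ± 0.03 CPM in medium. The 2 alpha genes together reached 10 counts in a library at most and their sum was not tested.

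The alcohol itself was asked about by setting the vehicles against medium. None of the 32 tested genes was called between the 12 vehicle libraries and the 3 medium libraries, against 0% of all genes, and 2 had an unadjusted p under 0.05 (PCDH1 and PCDHGB4). The log2 difference was 0.10 for CDH13 (95% interval -0.12 to 0.32), 0.01 for PCDHGC3 (-0.15 to 0.17) and 0.04 for CDH6 (-0.56 to 0.64).

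Whether dose mattered was tested as the difference between vehicle-corrected changes. Between dexamethasone 1 µM and 0.01 µM none of the 32 genes was called, against 0.0476% of all genes, and 2 had an unadjusted p under 0.05 (PCDHGC5 and CDH8). The difference was 0.00 for PCDHGC3 (95% interval -0.28 to 0.29), -0.32 for CDH13 (-0.72 to 0.07), -0.60 for CDH6 (-1.71 to 0.51) and -0.05 for PCDH9 (-0.94 to 0.83). For PCDHGC3 the interval excludes a change of more than 0.29 between the doses, while for CDH6 and PCDH9 it is wide.

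Hydrocortisone differed by dose in 3 of the 32 genes, against 4.09% of all genes. The change at 10 µM was below that at 0.01 µM by 0.79 on the log2 scale for PCDHGC3 (SE 0.14, adjusted p = 0.000147 by edgeR). For CDH13 the difference was -0.79 (SE 0.19, adjusted p = 0.00791 by edgeR), and 0.0553 without replicate 3 of hydrocortisone 10 µM. As levels, CDH13 had 7.28 ± 1.46 CPM with hydrocortisone 10 µM, against 14.8 ± 0.85 CPM in its vehicle, and 9.21 ± 1.01 CPM with 0.01 µM, against 10.8 ± 0.65 CPM in its vehicle (SD, n = 3 each), so the vehicles of the 2 doses lay apart as well as the hormone groups. For PCDH7 it was 3.24 (SE 0.87, adjusted p = 0.0186 by edgeR), and the adjusted p was 0.0572 to 0.0965 without replicate 2 of hydrocortisone 0.01 µM, replicate 2 of the vehicle of 10 µM or replicate 1 of the vehicle of 0.01 µM. The summed gamma cluster differed by -0.49 (adjusted p = 0.0142 by edgeR).

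The 2 hormones shared a dose of 0.01 µM, the only matched pair, and there 2 of the 32 genes differed, against 4.98% of all genes. PCDHGC3 fell further with dexamethasone, by a log2 difference of -0.86 (SE 0.14, adjusted p = 4.23e-05 by edgeR). CDH13 did so too, with a difference of -0.81 (SE 0.19, adjusted p = 0.00653 by edgeR). As levels, PCDHGC3 had 16 ± 3.2 CPM with dexamethasone 0.01 µM and 28.4 ± 2.7 CPM with hydrocortisone 0.01 µM (SD, n = 3 each). CDH13 had 5.42 ± 0.98 CPM with dexamethasone 0.01 µM and 9.21 ± 1.01 CPM with hydrocortisone 0.01 µM. Without replicate 2 of dexamethasone 0.01 µM, or replicate 3 of its vehicle, up to 4 genes differed. No difference was called for CDH6 (-1.56, 95% interval -2.65 to -0.47, adjusted p = 0.0906), PCDH9 (1.16, 0.27 to 2.04, adjusted p = 0.137) or CDH2 (-0.06, -0.26 to 0.15, adjusted p = 0.847), all by edgeR.

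What was left after 3 days without hormone was tested on day 6 against the mean of the 4 vehicle libraries, 1 from each vehicle group. After dexamethasone 1 µM, 5 of the 32 genes were still called, against 10.2% of all genes (5.13% higher and 5.03% lower): CDH13, PCDHGC3 and CDH6 were lower and PCDH9 and PCDH18 higher. No gene of the set was called after dexamethasone 0.01 µM, hydrocortisone 10 µM or hydrocortisone 0.01 µM, against 0.0833%, 0.892% and 0.0892% of all genes. In these 3 comparisons 1, 4 and 2 of the 32 had an unadjusted p under 0.05, and DESeq2 called none of them. Without dexamethasone 1 µM replicate 2 the 5 calls became 3, and without the vehicle library of dexamethasone 0.01 µM 1 gene was called after hydrocortisone 0.01 µM.

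CDH13 had 5.32, 5.28 and 5.31 CPM on day 6 after dexamethasone 1 µM, against 10.7, 12, 12.6 and 12.9 CPM in the vehicle libraries (log2 change -1.18, SE 0.13, adjusted p = 5.24e-09 by edgeR). After dexamethasone 0.01 µM it had 10.2, 8.29 and 8.63 CPM, and after hydrocortisone 10 µM 9.54, 8.18 and 10.1 CPM, in both cases below all 4 vehicle libraries. Those changes, -0.41 and -0.37, were not called (adjusted p = 0.308 and 0.188 by edgeR).

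PCDHGC3 had 20.4, 19.6 and 21.9 CPM after dexamethasone 1 µM, against 29.7, 30.3, 30.3 and 32.1 CPM in the vehicle libraries (log2 change -0.56, SE 0.09, adjusted p = 2.91e-05 by edgeR). After dexamethasone 0.01 µM it had 29.6, 32.2 and 31.0 CPM, within the range of the vehicles or beside it (95% interval of the log2 change -0.17 to 0.21). Its share of gamma counts was 66.4% ± 2.1 after dexamethasone 1 µM and 74.5% ± 1.2 after 0.01 µM (SD, n = 3 each), against 70.0%, 72.4%, 74.4% and 75.8% in the vehicle libraries.

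CDH6 had 0.641, 0.839 and 0.830 CPM after dexamethasone 1 µM, against 1.57 to 2.5 CPM in the vehicle libraries (log2 change -1.37, SE 0.36, adjusted p = 0.00848 by edgeR), and the adjusted p was 0.073 without dexamethasone replicate 2. PCDH9 had 2.31, 2.01 and 2.27 CPM, against 0.427 to 1.27 CPM in the vehicle libraries (log2 change 1.42, SE 0.29, adjusted p = 0.000514 by edgeR). PCDH18 overlapped, with 1.67, 1.17 and 1.37 CPM, against 0.162, 0.807, 1.27 and 1.29 CPM. Its call (log2 change 1.03, adjusted p = 0.0227 by edgeR) was lost without the vehicle library at 0.162 CPM, which held 1 count and 77.1% ribosomal RNA (log2 change 0.36, adjusted p = 0.581), without dexamethasone replicate 2 (0.125) and by DESeq2 (0.114). CDH2, which had fallen on day 3, had 50.24 ± 3.13 CPM after dexamethasone 1 µM and 50.03 ± 1.83 CPM in the vehicle libraries (SD, n = 3 and 4).

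**Figure D5:**
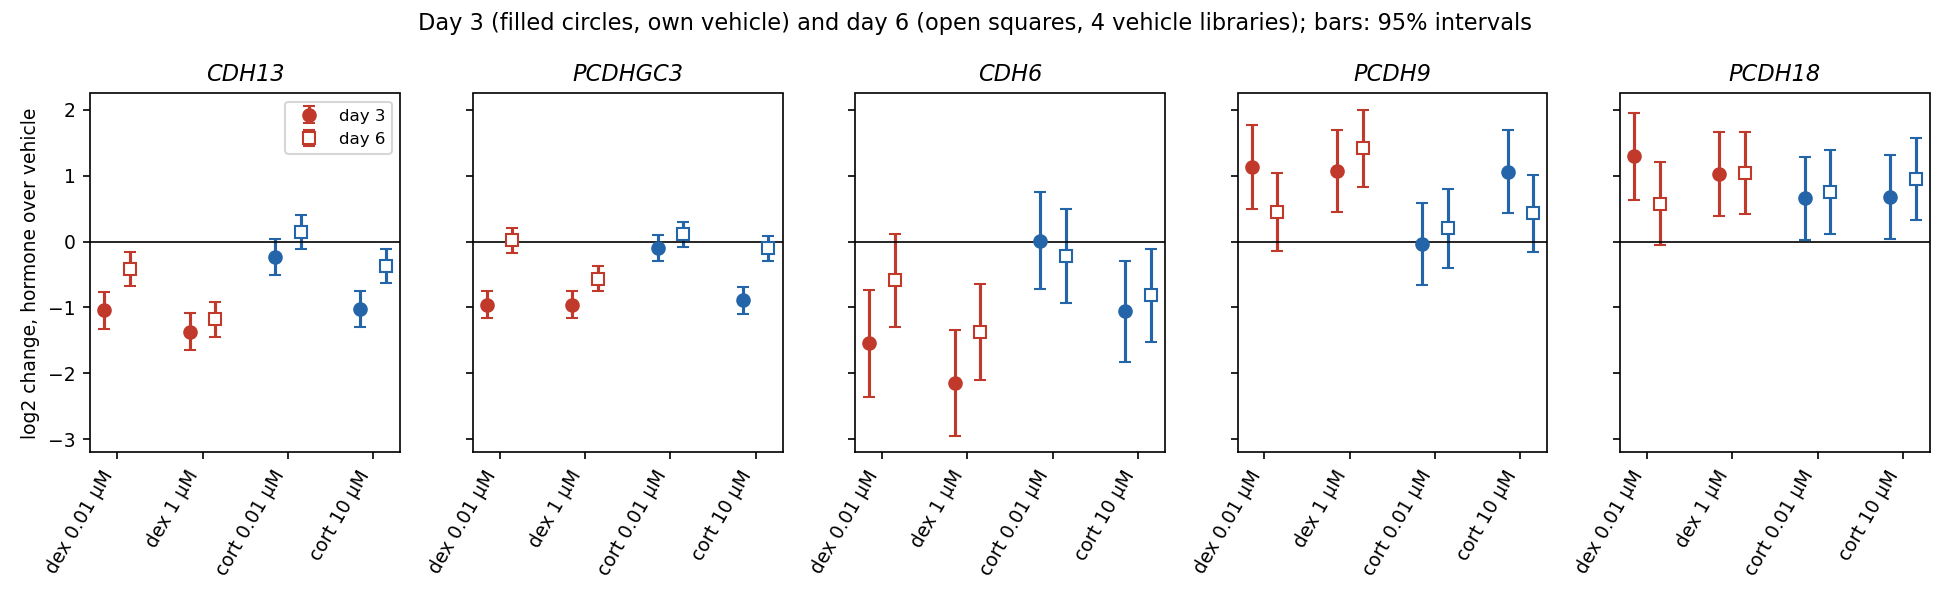
Log2 change with its 95% interval for CDH13, PCDHGC3, CDH6, PCDH9 and PCDH18 on day 3 (filled circles, against the own vehicle) and day 6 (open squares, against the 4 vehicle libraries), for dexamethasone in red and hydrocortisone in blue. After dexamethasone 1 µM the day 6 intervals stay on the day 3 side of 0 for all 5 genes, and after 0.01 µM that of PCDHGC3 runs from -0.17 to 0.21.

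The change over the washout was tested as the day 6 change minus the day 3 change, with the average of every vehicle group on the same day as the comparison. For dexamethasone 0.01 µM it was called in 2 of the 32 genes, against 6.55% of all genes: 0.96 for PCDHGC3 (SE 0.12, adjusted p = 2.46e-07 by edgeR) and 0.71 for CDH13 (SE 0.17, adjusted p = 0.00481 by edgeR). For hydrocortisone 10 µM it was called in 2, against 6.97%: 0.77 for PCDHGC3 (SE 0.12, adjusted p = 2.12e-05 by edgeR) and -2.27 for PCDH7 (SE 0.73, adjusted p = 0.045 by edgeR). The PCDH7 call was lost in 12 of the 22 fits that each left out 1 library (highest adjusted p = 0.183) and with a replicate block (0.0627). The protocol reseeded each flask, so libraries of the same treatment and number on both days may share a flask. With the flask as a block, 0 genes were called for dexamethasone 1 µM, 3 for 0.01 µM (CDH8 added) and 3 for hydrocortisone 10 µM (PCDHB5 added, with PCDH7 at an adjusted p of 0.0477). For dexamethasone 1 µM the washout change was called in none, against 1.68% of all genes, by edgeR, and in 2 by DESeq2, and in 1 without replicate 3 of the day 3 vehicle of dexamethasone 0.01 µM. There 3 had an unadjusted p under 0.05, and the change was 0.42 for PCDHGC3 (95% interval 0.18 to 0.67, adjusted p = 0.067) and 0.33 for CDH13 (-0.01 to 0.67, adjusted p = 0.453), by edgeR.

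Between the 4 vehicle libraries of day 6 and the 12 of day 3 none of the 32 genes was called by edgeR or by DESeq2, against 0.505% of all genes, and 3 had an unadjusted p under 0.05 (CDH8, PCDH9 and PCDH18). With the flask as a block CDH8 was called.

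Genes that work with cadherins were followed by lists. Among other members of the cadherin superfamily, listed together with FJX1, 6 of 13 tested genes rose and 2 fell with dexamethasone 1 µM. FJX1, which is not itself a cadherin, was among the genes called. In this comparison 10.3% of all genes rose and 12.3% fell. The median log2 change of the list was 0.20, against 0.02 for all genes. FAT4, a giant cadherin that binds DCHS1 and feeds into planar polarity and growth control, rose by 2.26 (SE 0.14, adjusted p = 3.2e-17 by edgeR). CDHR1, a cadherin of photoreceptors, rose by 2.05 and CELSR3, which acts in axon guidance, by 0.94. With hydrocortisone 10 µM 4 rose and 3 fell (all genes 5.58% and 7.5%), with FAT4 at 2.21, CDHR1 at 1.91 and FJX1, whose fly counterpart four-jointed modifies Fat and Dachsous, at -0.86. With dexamethasone 0.01 µM 6 rose and 2 fell (all genes 6.15% and 7.84%), with FAT4 at 2.21 and CDHR1 at 1.98.

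Among catenins and junction linkers, 4 of 15 rose and 4 fell with dexamethasone 1 µM, where 10.3% of all genes rose and 12.3% fell. LIMA1, an actin-binding linker of the cadherin complex, fell (log2 change -0.84) and so did CTNNAL1, which resembles alpha-catenin (-0.88). NECTIN4 rose by 2.03. LIMA1 and CTNNAL1 also fell with dexamethasone 0.01 µM (-0.51 and -0.69) and with hydrocortisone 10 µM (-0.73 and -0.63). They were the 2 list members called with dexamethasone 0.01 µM, and with hydrocortisone 10 µM NECTIN4 was called beside them. Of 7 desmosome genes 2 rose with dexamethasone 1 µM, PKP3 by 0.55 and DSC3 by 0.37, and none fell (all genes 10.3% and 12.3%).

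Among 11 tested genes for cadherin-cutting proteases and subunits of gamma-secretase, 4 rose and 1 fell with dexamethasone 1 µM (all genes 10.3% and 12.3%). ADAM10, the main sheddase of N-cadherin and E-cadherin, rose by 0.98 (SE 0.07, adjusted p = 4.5e-15 by edgeR), and NCSTN, of the gamma-secretase complex that cuts the remaining stub, by 0.42. ADAM10 also rose with dexamethasone 0.01 µM (0.97) and hydrocortisone 10 µM (0.78). Of 9 E-cadherin repressors and mesenchymal factors, 1 rose (SNAI2, by 0.96) and 1 fell (ZEB2, log2 change -0.50) with dexamethasone 1 µM, where 22.6% of all genes were called.

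Among 21 regulators and partners of clustered protocadherins, 1 rose and 2 fell with dexamethasone 1 µM, against 22.6% of all genes called there in either direction. PTK2B, the focal adhesion kinase relative PYK2 that protocadherins bind, rose by 2.13 (SE 0.20, adjusted p = 7.4e-12 by edgeR), and the cohesin subunits STAG1 and STAG2 changed by -0.25 and -0.20. With hydrocortisone 0.01 µM no gene of these lists was called on day 3.

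Markers of other cell types were summed beside these results. Epithelial markers (7 of 9 in the table, of which KRT8 and KRT18 had a median above 1 CPM) summed to 81.4 to 88.1 CPM with dexamethasone 1 µM, against 183 to 225 CPM in its vehicle, and 2 of 4 tested fell. Fibroblast and pericyte markers (10 of 12 in the table) summed to 2523 to 2786 CPM, against 2517 to 2676 CPM, and 5 of 10 tested rose and 2 fell. In this comparison, which holds for all the marker counts given here, 10.3% of all genes rose and 12.3% fell. Endothelial markers (5 of 7 in the table) summed to 1.96 to 2.61 CPM, against 1.38 to 2.47 CPM. Neuron markers (2 of 7 in the table) summed to 1.86 to 2.38 CPM, against 1.71 to 2.37 CPM. Astrocyte markers (2 of 5) summed to 6.5 to 8.66 CPM, against 3.84 to 4.23 CPM, and of the 2 tested 1 rose and 1 fell. Oligodendrocyte markers (2 of 5) summed to 0.439 to 1.14 CPM, against 0.977 to 1.42 CPM. Their part in the changes of cadherins was not tested, and in bulk RNA fewer cells with a transcript and less of it per cell cannot be told apart. Ribosomal RNA was 23.2% to 76.1% with dexamethasone 1 µM, against 13.9% to 45.7% in its vehicle.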

How the data were processed

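RNA of 43 HMC3 libraries (TruSeq Stranded Total RNA, NextSeq, paired-end, per the labels' protocols) was taken from 1 deposited table of whole read counts, which the authors had made per Ensembl gene. FastQC, STAR, featureCounts of Subread and GRCh38 are named in the submitters' processing notes; no source used here states their versions, strand or overlap settings. Groups and replicate numbers come from the sample titles.

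All 43 libraries in 17 groups were fitted together with edgeR 4.0.16 (R 4.3.3, TMM scaling, filterByExpr at 10 counts and a total of 15, robust glmQLFit and glmQLFTest), with Benjamini-Hochberg adjustment over the 16816 genes left of 20052. The code was tested on simulated data. Standard errors and 95% intervals of log2 changes come from the same fit. A day 3 hormone group was compared with its own vehicle, and a day 6 group with the mean of the 4 vehicle libraries. Differences between doses, hormones or days are contrasts of such changes. For cluster sums, the rows of the cluster genes were replaced by a summed row for each cluster, and that table was fitted separately in the same way. Ribosomal genes stayed in the table, and TMM scaled around them. Gene positions and exon lengths follow GENCODE release 29 on GRCh38, and promoters RefSeq on GRCh38.p14. The precision set by depth covers counting error only, since reads carried no molecular identifiers.

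Alternatives were RLE scaling, no filter, no ribosomal genes, no libraries over 75% ribosomal RNA, a replicate block, other vehicle or medium references, only the groups compared, each library left out, and DESeq2 1.42.0. The fits' design and the naming rule were written down in advance: all genes of the set called on day 3 against a vehicle, CDH1, CDH2, CDH5, CDH11 and CDH13, the 6 most abundant per kb, and up to 3 called genes of each list by p. The genes, lists and markers were chosen with earlier results of these data known. Some items of the marker and gene lists are not reported here.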

Additional observations from a re-analysis of the deposited data

Results flagged for a closer look

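For 9 results the size of a change differed between doses, hormones or days by edgeR's quasi-likelihood test of the difference itself. Between hydrocortisone 10 µM and 0.01 µM the vehicle-corrected log2 changes differed by -0.79 for PCDHGC3, by -0.79 for CDH13 and by 3.24 for PCDH7. Between dexamethasone and hydrocortisone at 0.01 µM they differed by -0.86 for PCDHGC3 and by -0.81 for CDH13. From day 3 to day 6, after the hormone was removed, the change moved by 0.96 for PCDHGC3 and by 0.71 for CDH13 with dexamethasone 0.01 µM. With hydrocortisone 10 µM it moved by 0.77 for PCDHGC3 and by -2.27 for PCDH7.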

How the results depend on the processing

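The 33 single-gene results kept their direction in every alternative, and 17 also kept their call in every one. The number of genes called out of the 32 stayed within 1.5 times, with these exceptions. For dexamethasone 0.01 µM on day 3 (7 called) a fit of the 2 groups alone gave 2, and over all genes 664, against 2353. Without libraries over 75% ribosomal RNA that comparison called 1522 genes in all. For hydrocortisone 10 µM on day 3 (5 called) all 4 vehicle groups gave 8, and over all genes 4066, against 2199. For the washout change of dexamethasone 1 µM (0 called) 1 was called without ribosomal genes, 1 without libraries over 75% ribosomal RNA, and 2 by DESeq2. For that of hydrocortisone 10 µM (2 called) 1 was called without the low-count filter, 1 with a replicate block and 1 by DESeq2. The cause was not tested.

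Leaving out 1 library at a time gave 5 to 7 called genes for dexamethasone 1 µM on day 3, 5 to 7 for 0.01 µM, 3 to 6 for hydrocortisone 10 µM and 0 to 0 for 0.01 µM and for vehicle against medium. It gave 0 to 0 for the dexamethasone doses, 2 to 3 for the hydrocortisone doses and 2 to 4 for dexamethasone against hydrocortisone. On day 6 it gave 3 to 5 for dexamethasone 1 µM, 0 to 0 for 0.01 µM and for hydrocortisone 10 µM, and 0 to 1 for hydrocortisone 0.01 µM. For the washout it gave 0 to 1 for dexamethasone 1 µM, 2 to 3 for 0.01 µM and 1 to 2 for hydrocortisone 10 µM, and 0 to 0 for vehicles of day 6 against day 3.

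Same-numbered libraries of a hormone and its vehicle did not deviate together (correlations -0.134 to 0.0672, 0 of 9 pairs over 0.1), so these numbers were not taken to pair them. Day 6 and day 3 libraries of the same number may share a flask; 5 of 12 such pairs were over 0.1, among them all 3 of hydrocortisone 10 µM (0.107 to 0.138), and the labels do not say that the number carries over. A replicate block gave 7, 7, 5 and 0 called genes in the 4 hormone comparisons of day 3 and, by flask, 1 between vehicles of day 6 and day 3 (0 without it), where it called 161 genes in all, against 85. Without libraries over 75% ribosomal RNA that comparison called 37. Counts under about 10 per library limit PCDH7, PCDHB2, PCDHGC5 and CDH1, and also CDH6 in some libraries of both dexamethasone doses on day 3. Such counts also limit PCDH9 and PCDH18 in some of the hormone and vehicle libraries compared.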
